A study of Mus musculus with 56 samples.

Results

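The genes described here are 33 genes of fatty acid oxidation, chosen by name for their part in the uptake, activation, mitochondrial import and β-oxidation of fatty acids and in the control of that pathway. All 33 were present in the table of normalised read counts, which holds 14870 mouse genes and 1 row for the injected transgene. The counts came from bulk RNA sequencing of tibialis anterior, a muscle at the front of the lower leg. Mice were homozygous (HOMO) or heterozygous (HET) for the mechanical knock-out allele of titin, or wild-type (WT). Titin is the giant elastic protein of the sarcomere, and the allele gives it an engineered site that TEV protease cuts. Muscles received either adeno-associated virus (AAV) that encodes a fusion of GFP and TEV protease, or saline. They were taken 3, 7 or 21 days after the injection (dpi). HOMO AAV muscle was sampled at 3 dpi (n = 4), 7 dpi (n = 5) and 21 dpi (n = 4), and HOMO saline muscle at the same days (n = 4 each). The labels do not name the promoter that drives the protease. HET AAV and HET saline muscle were sampled at 7 dpi (n = 4 each). WT AAV muscle (n = 5, 4 and 4 at 3, 7 and 21 dpi) received the same virus without the engineered titin allele, and WT saline muscle (n = 3, 3 and 4) neither. The labels give no age or sex and do not say whether the libraries of a group are separate animals, so that p-values measure the spread between these libraries, which may in part be technical.

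Fatty acids enter muscle fibres after lipoprotein lipase releases them from circulating triglyceride and transporters carry them across the membrane. They are joined to coenzyme A, passed into the mitochondrial matrix on carnitine, and shortened in repeated rounds of dehydrogenation, hydration, a further dehydrogenation and thiolysis. In skeletal muscle these genes are known to be under joint control of the coactivator PGC-1α with the nuclear receptors PPARα and ERRα, and to be most active in oxidative fibres and in fasting or endurance exercise.

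The libraries held between 6.9 and 27.2 M reads (M for the SI prefix mega), with a median of 21.7 M, and the shallowest was HOMO AAV replicate 2 at 7 dpi, and the next held 15.0 M. The transgene averaged 49.4, 22.4 and 640.4 normalised read counts in HOMO AAV muscle at 3, 7 and 21 dpi, 86.6 in HET AAV muscle at 7 dpi, and 17.2, 239.5 and 756.1 in WT AAV muscle at 3, 7 and 21 dpi, against 0.143 or less on average in every saline group. Its level thus differed between AAV groups of the same day, with 22.4 in HOMO and 239.5 in WT muscle at 7 dpi, and the part of this in the results was not tested. A gene was called where limma's moderated test over all 56 libraries and 13017 genes gave a Benjamini-Hochberg adjusted p under 0.05. All 33 fatty acid oxidation genes passed the filter on low values. Changes are given on the scale of log2(value + 1), AAV minus saline, ± the standard error, and values of single libraries are normalised read counts.

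Most of the 33 genes were lower after AAV in homozygous and heterozygous muscle, and none was called higher in any comparison of AAV with saline. In HOMO muscle 25 of 33 fell at 3 dpi, 24 at 7 dpi and 31 at 21 dpi, with median log2 changes of -0.52, -0.61 and -0.99 over the 33 genes. The median over all 13017 genes tested was -0.01 at 3 dpi, -0.01 at 7 dpi and -0.00 at 21 dpi. Of all genes tested, 17.2%, 22.5% and 29.6% were called lower and 17.4%, 20.6% and 29.7% higher at 3, 7 and 21 dpi. In HET muscle at 7 dpi 26 of 33 fell, with a median of -0.65, beside 20.8% of all genes called lower and 19.6% higher. With the replicate number as a block, 27 members fell in HET muscle at 7 dpi and 32 in HOMO muscle at 21 dpi. The labels do not say that a number marks a shared animal. The pairing was inferred from weak correlations in these same data, 0.128 to 0.178 in HET muscle and 0.165 to 0.233 in HOMO muscle. The additions were Slc25a20 in HET muscle (limma adjusted p = 0.0361) and Acot2 in HOMO muscle (limma adjusted p = 0.0467). Without HOMO AAV replicate 2 at 7 dpi, the shallowest library, 24 members were lower in HOMO muscle at 7 dpi.

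In wild-type muscle no member was called at the earlier days. There 0 of 33 genes were called at 3 dpi and 0 at 7 dpi by limma, with 0 and 0 at an unadjusted p under 0.05 and 0 and 0 by edgeR, limma voom and DESeq2 on the recovered reads. Over all genes edgeR and limma voom called 0 at either day, and DESeq2 called 1 lower and 7 higher at 3 dpi and 3 lower and 4 higher at 7 dpi. Median changes of the members were -0.01 and -0.08, and of all genes tested 0% were called lower and 0% higher at 3 dpi, and 0% lower and 0% higher at 7 dpi. At 21 dpi 18 of 33 members fell in WT muscle, with a median of -0.39, beside 21.3% of all genes called lower and 19.7% higher. That count was 7 under quantile normalization and 7 without WT AAV replicate 4. Across the 5 comparisons that held any call (HOMO at 3, 7 and 21 dpi, HET at 7 dpi, WT at 21 dpi), which share no library, 14 members fell in all 5, beside 6.65% of all genes tested, and 2, Acot2 and Pdk4, in none. The count of 14 was 3 under quantile normalization and 6 without WT AAV replicate 4 at 21 dpi. In HOMO muscle 21 of 33 members fell at all 3 days, beside 10.7% of all genes, and 15 did under quantile normalization. Every AAV library lay below every saline library in 12, 24 and 29 members in HOMO muscle at 3, 7 and 21 dpi, in 28 in HET muscle and in 13 in WT muscle at 21 dpi, as did 13.35%, 17.0%, 22.49%, 20.99% and 19.93% of all genes tested.

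**Figure D1:**
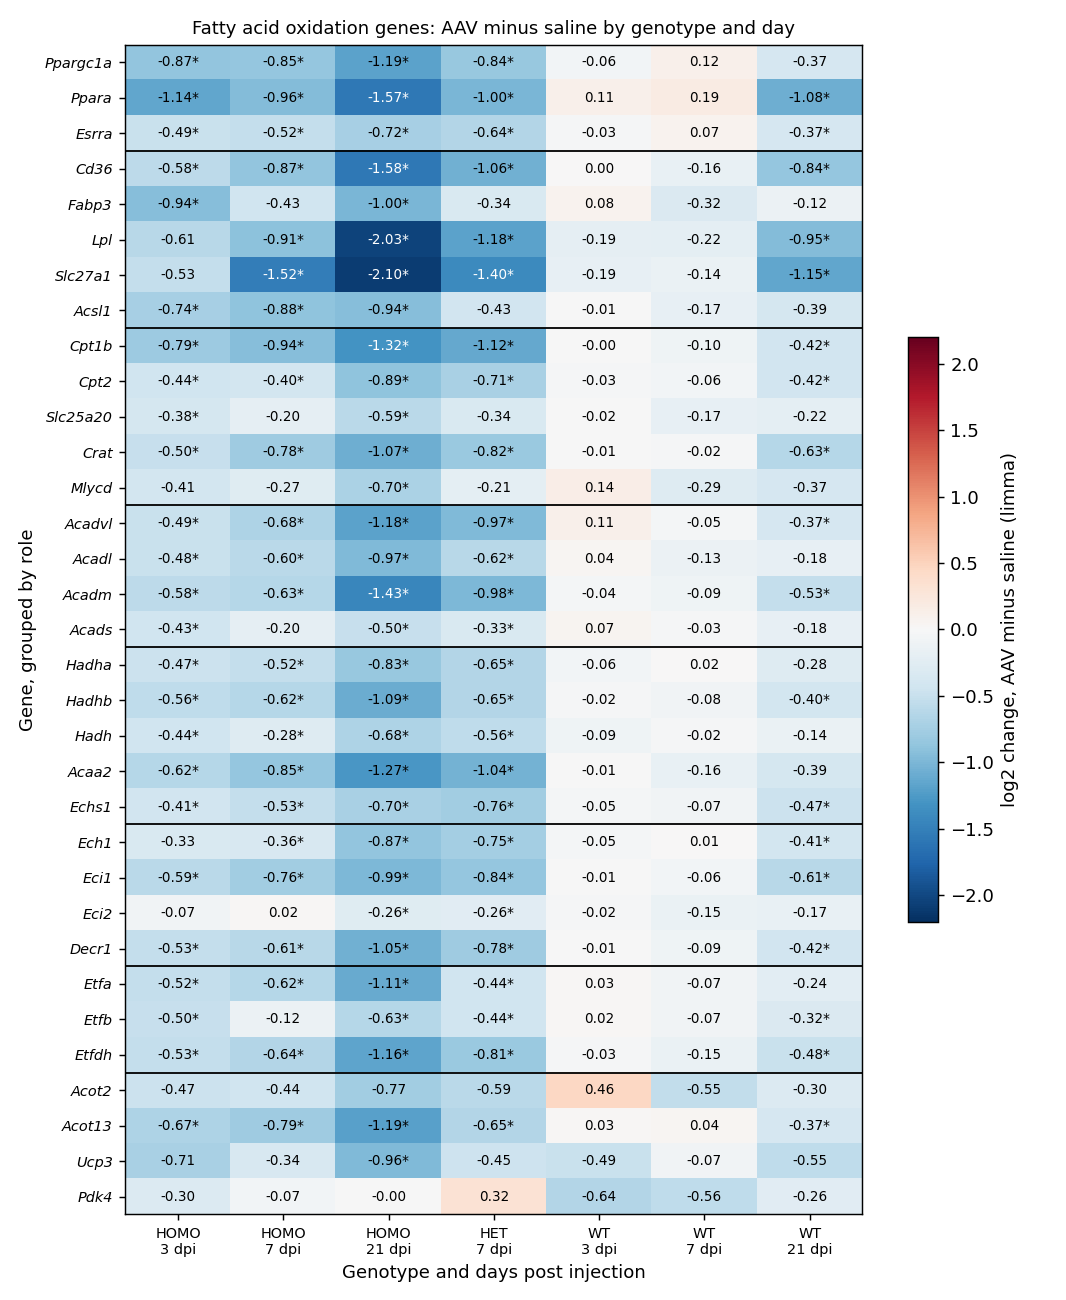
Log2 change of each of the 33 fatty acid oxidation genes, AAV minus saline (colour and printed value, limma), with genes down the page in order of role and columns by genotype and days post injection. An asterisk marks an adjusted p under 0.05. All marked cells are negative, and the 2 WT columns at 3 and 7 dpi hold none.

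A level for each library, the median over the 33 genes of its log2 value minus the mean of the 10 WT saline libraries, was also computed. HOMO AAV muscle stood at -1.36, -1.48, -1.48 and -1.02 at 21 dpi, against -0.16, -0.45, -0.43 and -0.34 in HOMO saline muscle. All 4 AAV libraries lay below all 4 saline libraries. At 7 dpi the 5 HOMO AAV libraries stood at -0.88, -0.88, -0.91, -1.23 and -0.81, against -0.16, -0.43, -0.55 and -0.22 in HOMO saline muscle, again without overlap. At 3 dpi the ranges met, with -0.72, -0.94, -1.06 and -0.39 in HOMO AAV muscle and -0.44, -0.21, -0.38 and -0.04 in HOMO saline muscle. The HOMO AAV library nearest to saline there was replicate 4, and the number of members called lower at 3 dpi was 30 without it and 18 without replicate 3. HET AAV muscle stood at -0.61, -0.97, -0.71 and -1.0, and HET saline muscle at -0.14, -0.09, -0.13 and -0.11. WT AAV muscle at 21 dpi spread from -0.82 to -0.19, against -0.04, -0.07, -0.00 and -0.15 in WT saline muscle.

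**Figure D2:**
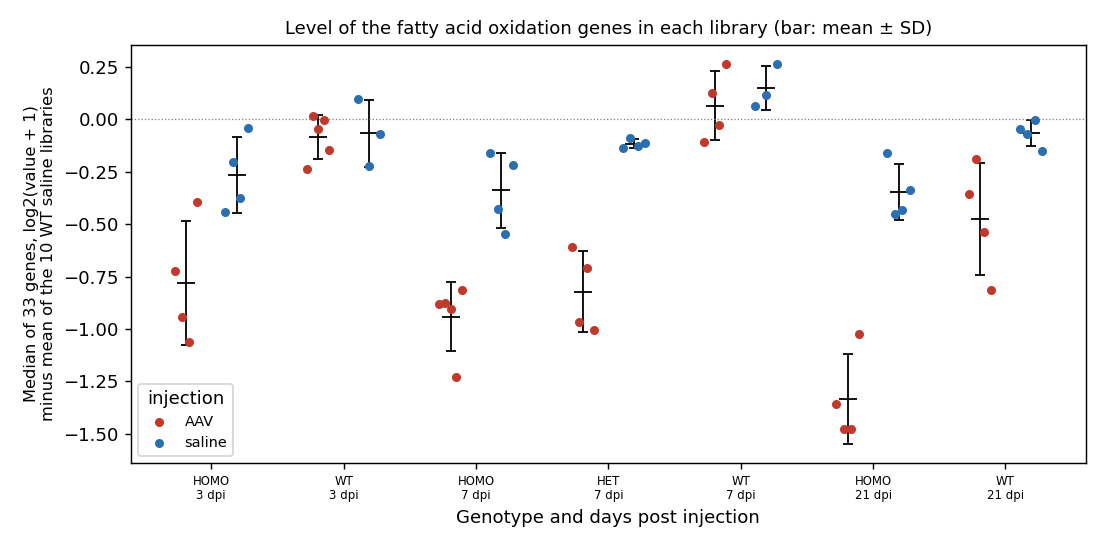
Median level of the 33 fatty acid oxidation genes in each of the 56 libraries (points, log2 difference from the mean of the WT saline libraries), by genotype and days post injection, AAV in red left of saline in blue, with bars for the mean ± SD of each group. HOMO AAV libraries at 21 dpi lie between -1.48 and -1.02, and WT AAV libraries at 3 and 7 dpi lie between -0.24 and 0.26.

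Among the regulators are Ppargc1a, which encodes the coactivator PGC-1α, Ppara, which encodes the fatty acid sensing receptor PPARα, and Esrra, which encodes the orphan nuclear receptor ERRα. All 3 fell in HOMO muscle at every day and in HET muscle. Ppargc1a had 8.10, 9.80, 11.1 and 18.2 in HOMO AAV muscle, against 26.8, 28.2, 25.5 and 27.3 in HOMO saline muscle at 21 dpi. The AAV values all lay below the saline values (log2 change -1.19 ± 0.18, limma adjusted p = 4.29e-07). At 3 dpi Ppargc1a had 12.9, 19.3, 12.9 and 29.0 in HOMO AAV muscle, against 30.6, 43.0, 27.7 and 31.9 in HOMO saline muscle, and 1 AAV library reached into the saline range (log2 change -0.87 ± 0.18, limma adjusted p = 0.000267). It averaged 14.4 ± 2.85 in HOMO AAV muscle and 26.5 ± 3.77 in HOMO saline muscle at 7 dpi (SD, n = 5 and 4). At 7 dpi it had 27.8, 25.6, 23.1 and 16.9 in HET AAV muscle, against 36.4, 52.2, 42.1 and 38.4 in HET saline muscle, without overlap. Without the engineered allele it did not pass the test at 21 dpi, although the 4 AAV values of 29.8, 28.9, 32.0 and 25.5 lay below the 4 saline values of 33.4, 36.1, 40.6 and 41.3 (log2 change -0.37 ± 0.18, limma adjusted p = 0.105).

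Ppara was the least abundant of the 33 genes per length and fell in relative terms more than the other regulators. At 21 dpi it had 2.37, 1.15, 1.55 and 2.89 in HOMO AAV muscle, against 6.30, 9.37, 7.24 and 8.09 in HOMO saline muscle, and the groups were separate (log2 change -1.57 ± 0.24, limma adjusted p = 3.12e-07). At 3 dpi it had 1.93, 3.31, 4.16 and 5.15 in HOMO AAV muscle, against 7.99, 12.4, 7.35 and 8.36 in HOMO saline muscle, also without overlap (log2 change -1.14 ± 0.24, limma adjusted p = 0.000267). It was the regulator with the largest fall in WT muscle at 21 dpi, with 4.45, 3.55, 5.94 and 2.74 in WT AAV muscle, against 9.91, 9.04, 8.31 and 11.5 in WT saline muscle (log2 change -1.08 ± 0.24, limma adjusted p = 0.000377), and there too no value was shared between the groups. These are low normalised counts, so the +1 added before taking logarithms shrinks its change. Esrra moved less. It had 40.4, 38.9, 33.6 and 57.1 in HOMO AAV muscle, against 78.1, 68.3, 80.6 and 54.1 in HOMO saline muscle at 21 dpi, with 1 AAV library above the lowest saline library (log2 change -0.72 ± 0.12, limma adjusted p = 7.16e-07), and 60.1, 49.4, 69.5 and 53.1 in HET AAV muscle, against 82.1, 102, 86.3 and 92.2 in HET saline muscle at 7 dpi, without overlap (log2 change -0.64 ± 0.12, limma adjusted p = 1.78e-05).

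Genes of uptake and activation held the largest falls of the set in HOMO muscle at 7 and 21 dpi and in HET muscle. In HOMO muscle at 3 dpi the regulators fell further, with a median log2 change of -0.87, against -0.61 for uptake and activation. All 5 uptake and activation genes fell in HOMO muscle at 21 dpi, with a median of -1.58. Cd36, the fatty acid translocase of the cell surface, had 143, 74.7, 70.5 and 123 in HOMO AAV muscle, against 401, 249, 236 and 318 in HOMO saline muscle at 21 dpi. No AAV library reached the lowest saline library (log2 change -1.58 ± 0.21, limma adjusted p = 1.16e-08). In HET muscle at 7 dpi Cd36 had 199, 135, 139 and 138 in HET AAV muscle, against 308, 294, 319.6 and 337 in HET saline muscle, with 3 AAV libraries close together and replicate 1 above them (log2 change -1.06 ± 0.21, limma adjusted p = 6.33e-05). The WT values at 21 dpi were 272, 323, 202 and 134 in WT AAV muscle, against 408, 384, 431 and 367 in WT saline muscle, again without overlap (log2 change -0.84 ± 0.21, limma adjusted p = 0.00104).

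Lpl, the lipoprotein lipase that frees fatty acids from triglyceride, had 232, 73.5, 67.8 and 202 in HOMO AAV muscle, against 595, 555, 474 and 429 in HOMO saline muscle at 21 dpi. Its AAV libraries formed a low pair and a higher pair, all below saline (log2 change -2.03 ± 0.26, limma adjusted p = 6.66e-09). Of the WT libraries at 21 dpi, AAV replicate 4 alone was in that low range, with 449.6, 436, 379.7 and 152 in WT AAV muscle, against 596, 629, 665 and 638 in WT saline muscle (log2 change -0.95 ± 0.26, limma adjusted p = 0.00306). Slc27a1, the transporter FATP1, showed the largest fall of any member, to 17.1 ± 8.62 in HOMO AAV muscle, against 70.8 ± 15.9 in HOMO saline muscle (SD, n = 4 each, log2 change -2.1 ± 0.28, limma adjusted p = 1.62e-08). It also fell at 7 dpi in HOMO muscle (log2 change -1.52 ± 0.27) and in HET muscle (-1.40 ± 0.28), and was not called in HOMO muscle at 3 dpi (-0.53 ± 0.28, limma adjusted p = 0.143). Fabp3, the heart-type cytosolic fatty acid binding protein, fell at 3 and 21 dpi in HOMO muscle (log2 changes -0.94 ± 0.32 and -1.0 ± 0.32) and was not called at 7 dpi, where it stood at -0.43 ± 0.31 in HOMO and -0.34 ± 0.32 in HET muscle. Acsl1, the main acyl-CoA synthetase of muscle, averaged 206 ± 51.1 in HOMO AAV muscle and 395 ± 95.2 in HOMO saline muscle at 21 dpi (SD, n = 4 each), fell at all 3 days in HOMO muscle, and stood at -0.43 ± 0.19 in HET muscle without passing the test (limma adjusted p = 0.0713).

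Free fatty acids and their carriers are also handled by capillary endothelium and, for Lpl and Cd36, by fat cells and macrophages, so markers of those cells were read beside them. Of 12 endothelial markers, 6, 9 and 11 fell in HOMO muscle at 3, 7 and 21 dpi, 9 in HET muscle and 10 in WT muscle at 21 dpi, and none rose. Their summed level in HOMO muscle at 21 dpi ran from 196 to 338 normalised counts after AAV and from 465 to 561 after saline. Of 7 adipocyte markers in the table, 2 (Cfd and Pparg) passed the filter and the defining gene Adipoq did not, and 1 of the 2 fell in HOMO muscle at 7 and 21 dpi and in WT muscle at 21 dpi. The summed level of all 7 ran from 5.91 to 9.50 in HOMO AAV muscle and from 8.40 to 20.4 in HOMO saline muscle at 21 dpi. The part of the endothelial change in the falls of Cd36 and Lpl was not tested.

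Long chains cross the inner mitochondrial membrane on carnitine, and Cpt1b, the muscle form of carnitine palmitoyltransferase 1 and the rate-controlling step of the pathway, fell in each of the 5 comparisons with calls. Cpt1b had 93.2, 73.7, 81.6 and 153 in HOMO AAV muscle, against 253, 218, 240.4 and 257 in HOMO saline muscle at 21 dpi. AAV replicate 4 was the highest of its group and still below every saline library (log2 change -1.32 ± 0.16, limma adjusted p = 2.39e-09, 0.401 of the saline level on that scale). It had 152, 142, 144, 94.4 and 138 in HOMO AAV muscle, against 279, 241, 245 and 254 in HOMO saline muscle at 7 dpi and 171, 137, 109 and 227 in HOMO AAV muscle, against 257, 282, 235 and 311 in HOMO saline muscle at 3 dpi, without overlap at either day. At 7 dpi it had 175, 116, 147 and 119 in HET AAV muscle, against 314, 307, 289.8 and 287 in HET saline muscle (log2 change -1.12 ± 0.16, limma adjusted p = 3.7e-07). In WT muscle at 21 dpi its AAV values of 251, 305, 206 and 182 overlapped the saline values of 304, 308, 329 and 302, and the call (log2 change -0.42 ± 0.16, limma adjusted p = 0.0327) was lost under 8 of 19 other settings. Cpt1b lies next to Chkb and shares a read-through transcript with it, so its count may hold some reads of that neighbour.

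Crat, the carnitine acetyltransferase that exports acetyl groups, was the carnitine gene with the smallest adjusted p at 21 dpi in HOMO muscle, where it had 149, 176, 192 and 295 in HOMO AAV muscle, against 424, 379.7, 418 and 434 in HOMO saline muscle (log2 change -1.07 ± 0.13, limma adjusted p = 2.31e-09). The groups were separate by a wide margin. Crat also had the smallest adjusted p of all members in WT muscle at 21 dpi, with 359, 409, 288 and 247 in WT AAV muscle, against 506, 491, 508 and 472 in WT saline muscle and no overlap (log2 change -0.63 ± 0.13, limma adjusted p = 0.000159). Cpt2, which releases the chain from carnitine inside the matrix, stood at -0.89 ± 0.14 at 21 dpi in HOMO muscle and fell in the other 4 comparisons by 0.40 to 0.71 on the log2 scale. Slc25a20, the carnitine-acylcarnitine exchanger, fell at 3 and 21 dpi in HOMO muscle (-0.38 ± 0.15 and -0.59 ± 0.15). Mlycd, which encodes malonyl-CoA decarboxylase and so removes the inhibitor of Cpt1b, fell in HOMO muscle at 21 dpi only among the 5 comparisons (-0.70 ± 0.20, limma adjusted p = 0.0031), and its other changes ran from -0.41 to -0.21.

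The 4 acyl-CoA dehydrogenases, which start each round and differ in the chain length they take, fell together in HOMO muscle at 3 and 21 dpi and in HET muscle. Acadvl, for very long chains, had 104, 111, 98.7 and 169.5 in HOMO AAV muscle, against 278, 251, 259 and 284 in HOMO saline muscle at 21 dpi (log2 change -1.18 ± 0.13, limma adjusted p = 1.92e-10). At 7 dpi it had 210.2, 166, 207 and 159 in HET AAV muscle, against 385, 367, 343 and 349.6 in HET saline muscle (log2 change -0.97 ± 0.13, limma adjusted p = 9.68e-08). Both comparisons were free of overlap, and so was HOMO muscle at 7 dpi, with 172, 177, 181, 139 and 179 in HOMO AAV muscle, against 309, 263, 251 and 262 in HOMO saline muscle. Acadm, for medium chains, fell furthest of the 4 at 21 dpi, to 102 ± 33.6 in HOMO AAV muscle, against 268 ± 35.0 in HOMO saline muscle (SD, n = 4 each, log2 change -1.43 ± 0.16, limma adjusted p = 3.2e-10). Acadl, for long chains, stood at -0.97 ± 0.15 there. Acads, for short chains, moved least, with -0.50 ± 0.09 at 21 dpi, -0.43 ± 0.09 at 3 dpi and -0.33 ± 0.09 in HET muscle, and was not called in HOMO muscle at 7 dpi (-0.20 ± 0.09, limma adjusted p = 0.0549). In WT muscle at 21 dpi Acadvl (-0.37 ± 0.13) and Acadm (-0.53 ± 0.16) fell, while Acadl stood at -0.18 ± 0.15 and Acads at -0.18 ± 0.09 without passing the test.

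The promoter of Acadm is shown because it was the only one of the members' windows to hold the half-site core AAGGTCA, the letters bound by ERRα and its relatives. Windows of 250 bases before to 50 after the start site were taken from RefSeq (GRCm38.p6), and 27 of the 33 members had one. The core was present on either strand in 1 of 27 members, beside 5.38% of all 27025 genes with a window. The longer element TCAAGGTCA, which contains the core, was in 0 of 27 members and 0.466% of all genes. A direct repeat of AGGTCA with 1 base between, the form read by PPARα with RXR, was in 0 of 27 members and 0.0481% of all genes. The Acadm window lies at chr3:153944594-153944893 and is given on the gene's own strand, the minus strand, with the match, which reads in reverse complement, in capitals.
Acadm: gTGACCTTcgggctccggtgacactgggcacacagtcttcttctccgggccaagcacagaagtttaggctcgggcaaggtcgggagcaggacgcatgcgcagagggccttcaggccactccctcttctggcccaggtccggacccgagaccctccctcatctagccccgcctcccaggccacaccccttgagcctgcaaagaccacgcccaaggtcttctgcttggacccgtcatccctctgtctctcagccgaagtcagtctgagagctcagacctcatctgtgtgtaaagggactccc

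The next steps of the round are carried out on long chains by the trifunctional protein, whose α and β subunits are encoded by Hadha and Hadhb, and on shorter chains by Echs1 (hydratase), Hadh (hydroxyacyl dehydrogenase) and Acaa2 (thiolase). All 5 fell at each of the 3 days in HOMO muscle and in HET muscle. Hadha had 187, 196, 189 and 269 in HOMO AAV muscle, against 438, 322, 355 and 375 in HOMO saline muscle at 21 dpi (log2 change -0.83 ± 0.13, limma adjusted p = 4.96e-07), and Hadhb had 183, 194, 177 and 263 in HOMO AAV muscle, against 506, 395, 417 and 412 in HOMO saline muscle (log2 change -1.09 ± 0.12, limma adjusted p = 8.19e-11). In both genes the HOMO AAV library with the highest value was replicate 4, and no AAV value reached the saline range. At the other points log2 changes were -0.47 ± 0.13 for Hadha and -0.56 ± 0.12 for Hadhb at 3 dpi, -0.52 ± 0.12 and -0.62 ± 0.11 at 7 dpi, and -0.65 ± 0.13 and -0.65 ± 0.12 in HET muscle. Hadhb also fell in WT muscle at 21 dpi (-0.40 ± 0.12, limma adjusted p = 0.0052), while Hadha did not pass the test (-0.28 ± 0.13, limma adjusted p = 0.0769).

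Hadha and Hadhb lie head to head on chromosome 5, with RefSeq start sites 273 bases apart, and their promoter windows share 228 bases. The sequence is shown because the 2 windows share 1 stretch of DNA, and its part in the changes of the 2 genes was not tested. The sequence is the plus strand of chr5:30155003-30155302 (GRCm38.p6), the window of Hadhb, which is read left to right, with the stretch that also belongs to the window of Hadha, read right to left, in capitals. In the annotation used for exon lengths Hadha begins at 30155162, inside that stretch. Reads of the 2 genes come from opposite strands, and whether the counting used strand is not stated in the labels, although the library kit keeps it.
Hadha and Hadhb: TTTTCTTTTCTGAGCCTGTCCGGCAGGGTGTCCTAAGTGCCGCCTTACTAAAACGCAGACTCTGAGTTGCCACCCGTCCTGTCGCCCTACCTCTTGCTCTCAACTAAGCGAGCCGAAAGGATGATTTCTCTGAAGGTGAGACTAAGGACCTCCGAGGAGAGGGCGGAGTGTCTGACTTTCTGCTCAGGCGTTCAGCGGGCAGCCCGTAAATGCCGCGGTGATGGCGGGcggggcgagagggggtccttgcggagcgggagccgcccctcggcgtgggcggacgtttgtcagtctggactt

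Acaa2 fell to 42.2 ± 17.1 in HOMO AAV muscle at 21 dpi, against 98.3 ± 18.6 in HOMO saline muscle (SD, n = 4 each, log2 change -1.27 ± 0.19). Echs1 and Hadh fell less there, with log2 changes of -0.70 ± 0.10 and -0.68 ± 0.11. Echs1 was the member with the smallest adjusted p in HET muscle at 7 dpi (-0.76 ± 0.10, limma adjusted p = 4.06e-08) and the second in WT muscle at 21 dpi (-0.47 ± 0.10, limma adjusted p = 0.000164). Hadh and Acaa2 stood at -0.14 ± 0.11 and -0.39 ± 0.19 in WT muscle at 21 dpi and did not pass the test.

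Auxiliary enzymes move or reduce the double bonds of unsaturated chains so that the round can go on. Decr1, the mitochondrial dienoyl-CoA reductase, had 47.2, 44.9, 44.4 and 61.8 in HOMO AAV muscle, against 129, 87.5, 95.6 and 104 in HOMO saline muscle at 21 dpi, with no overlap (log2 change -1.05 ± 0.15, limma adjusted p = 3.41e-08). It fell in all 5 comparisons. Eci1, an enoyl-CoA isomerase, also fell in all 5, by 0.99 at 21 dpi in HOMO muscle and by 0.61 in WT muscle on the log2 scale. Ech1, the dienoyl-CoA isomerase, fell in 4 and was not called in HOMO muscle at 3 dpi (-0.33 ± 0.15, limma adjusted p = 0.0716). Eci2, an isomerase also found in peroxisomes, had the smallest falls of any called member, -0.26 ± 0.09 in HOMO muscle at 21 dpi and -0.26 ± 0.09 in HET muscle, and stood at -0.07 ± 0.09 and 0.02 ± 0.09 in HOMO muscle at 3 and 7 dpi.

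Electrons from the dehydrogenases pass to the respiratory chain through electron transfer flavoprotein, encoded by Etfa and Etfb, and its ubiquinone oxidoreductase, encoded by Etfdh. Etfa had the smallest adjusted p of all 33 genes at 21 dpi in HOMO muscle, where it had 84.1, 81.6, 77.2 and 109.9 in HOMO AAV muscle, against 222, 174, 185 and 179 in HOMO saline muscle (log2 change -1.11 ± 0.11, limma adjusted p = 7.85e-12). The highest AAV library was well below the lowest saline library. At 7 dpi it had 116, 122, 128, 95.6 and 127 in HOMO AAV muscle, against 203, 174, 160.2 and 188 in HOMO saline muscle, and at 3 dpi 125, 119, 119 and 168 in HOMO AAV muscle, against 172, 189.6, 188 and 207 in HOMO saline muscle, with the fourth AAV library just under the lowest saline library. In WT muscle at 21 dpi the AAV values of 182, 192, 149.6 and 129 overlapped the saline values of 190.3, 192, 202 and 178 and Etfa did not pass the test (-0.24 ± 0.11, limma adjusted p = 0.069). Etfb and Etfdh fell at 21 dpi in HOMO muscle, with log2 changes of -0.63 ± 0.11 and -1.16 ± 0.13. Etfb, the partner subunit of Etfa, was not called in HOMO muscle at 7 dpi (-0.12 ± 0.10, limma adjusted p = 0.361), where Etfa stood at -0.62 ± 0.10.

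The last group holds enzymes that hydrolyse acyl-CoA (Acot2 and Acot13), the uncoupling protein gene Ucp3, and Pdk4, which encodes the kinase that shuts off pyruvate dehydrogenase and is induced by fasting. Acot13 was among the members that fell in all 5 comparisons. It had 19.1, 21.4, 20.9 and 36.9 in HOMO AAV muscle, against 49.5, 56.8, 60.5 and 54.7 in HOMO saline muscle at 21 dpi (log2 change -1.19 ± 0.13, limma adjusted p = 1.63e-10) and 29.7, 30.9, 31.4, 25.9 and 33.8 in HOMO AAV muscle, against 55.9, 53.0, 50.2 and 52.9 in HOMO saline muscle at 7 dpi (log2 change -0.79 ± 0.12, limma adjusted p = 1.87e-06), without overlap at either day. Acot2, which has close paralogues beside it on chromosome 12 so that reads may be split, was low and variable, between 4.15 and 8.53 in HOMO AAV muscle and between 5.33 and 16.9 in HOMO saline muscle at 21 dpi, and was not called (-0.77 ± 0.37, limma adjusted p = 0.0651). Ucp3 had 70.4, 73.4, 47.5 and 55.5 in HOMO AAV muscle, against 218, 91.9, 70.8 and 142 in HOMO saline muscle at 21 dpi. The saline libraries spread widely and the ranges overlapped slightly (log2 change -0.96 ± 0.31, limma adjusted p = 0.00719). Ucp3 was not called in the other comparisons, where it stood between -0.71 and -0.34 in HOMO, HET and 21 dpi WT muscle.

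Pdk4 stood near 0 in HOMO muscle at 21 dpi, with 705, 493, 325 and 323 in HOMO AAV muscle, against 1464, 274, 142 and 646 in HOMO saline muscle (log2 change -0.00 ± 0.54, limma adjusted p = 0.995). The first saline library was far above the other 3, and the AAV values lay inside the saline range. At 7 dpi Pdk4 had 456, 1008, 804, 396 and 1257 in HOMO AAV muscle, against 1967, 642, 235 and 1049 in HOMO saline muscle (log2 change -0.07 ± 0.52). Pdk4 was also the member with the widest spread between replicates, with an SD within groups of 0.81 on the log2 scale, against 0.22 for the median member and 0.20 for the median of all genes tested. At 7 dpi it had 199, 169, 272 and 239 in HET AAV muscle, against 187, 104, 215 and 216 in HET saline muscle (log2 change 0.32 ± 0.54, limma adjusted p = 0.681). Acot2, Fabp3 and Ucp3 followed in spread, with 0.54, 0.48 and 0.47, and Acads, Eci2 and Echs1 were the steadiest, with 0.13, 0.13 and 0.14.

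**Figure D3:**
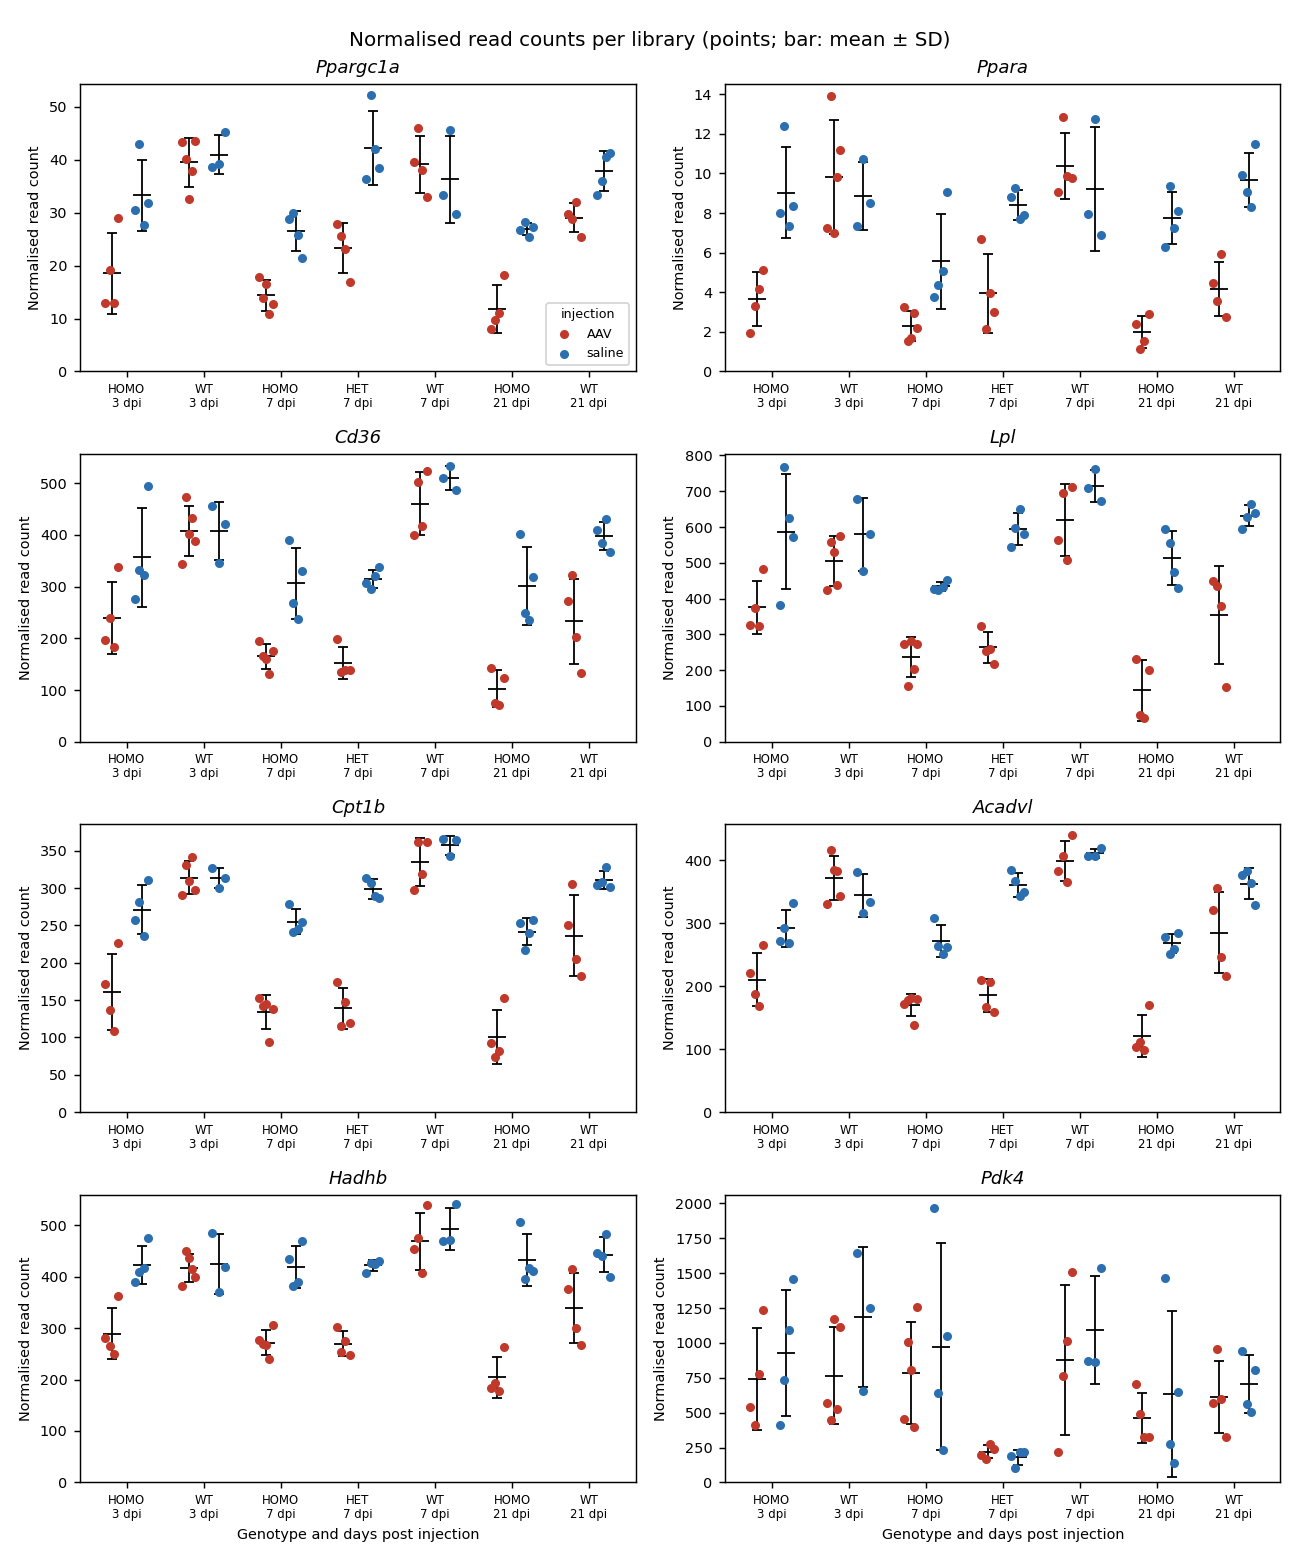
Normalised read counts of 8 members in every library (points), by genotype and days post injection, AAV in red left of saline in blue, with bars for the mean ± SD of each group. Cpt1b, Acadvl and Hadhb separate AAV from saline in HOMO muscle at 7 and 21 dpi, with HOMO AAV values of Hadhb between 177 and 263 at 21 dpi, while the Pdk4 values of AAV and saline muscle overlap.

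Levels without AAV differed widely between the members. In the 10 WT saline libraries, per kilobase of annotated exon, Fabp3 was highest at 367 ± 138 (SD, n = 10), followed by Pdk4 at 275 ± 112, and their ranges overlapped. Acadl and Acadvl came next at 159 ± 23.3 and 138 ± 13.2, with ranges that overlapped each other and that of Pdk4. Of the regulators, Esrra averaged 20.3 ± 1.18 per kilobase, above the averages of Slc27a1, Slc25a20, Echs1, Eci2 and Acot2. Ppargc1a and Ppara had the lowest averages of the 33 members, 5.81 ± 0.783 and 2.42 ± 0.493. Of the last 2, every Ppargc1a value per kilobase exceeded every Ppara value.

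Whether the AAV response differed between genotypes was tested directly, as the change in HOMO or HET muscle minus the change in WT muscle. At 7 dpi 13 of 33 members fell more in HOMO than in WT muscle (median difference -0.53), beside 10.9% of all genes with a lower response and 9.29% with a higher one. They were the 3 regulators, Slc27a1, Cpt1b, Crat, Acadvl, Hadha, Hadhb, Echs1, Eci1, Etfa and Acot13. In HET muscle 20 members fell more than in WT muscle (median -0.67), beside 9.88% lower and 10.3% higher over all genes. The 7 dpi differences of HOMO and HET muscle use the same WT libraries. Acadvl had the smallest adjusted p in HET muscle (-0.92 ± 0.19, limma adjusted p = 0.000541) and Acot13 in HOMO muscle (-0.82 ± 0.19, limma adjusted p = 0.00175). Between HOMO and HET muscle 0 members differed in response by limma, with 2 at an unadjusted p under 0.05 and 0 by edgeR, limma voom and DESeq2 on the recovered reads. The median difference there, HOMO minus HET, was 0.13, and the members ran from -0.45 to 0.39, while 2.54% of all genes had a lower and 0.699% a higher response in HOMO muscle.

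At 3 dpi 9 members fell more in HOMO than in WT muscle: Ppargc1a, Ppara, Cpt1b, Acadvl, Acads, Hadhb, Etfa, Etfb and Acot13 (median over the 33 -0.52), beside 4.36% of all genes lower and 5.39% higher. This count rested on single libraries. It was 1 without HOMO AAV replicate 3, 20 without HOMO AAV replicate 4, 2 without WT saline replicate 2, 4 without HOMO saline replicate 4, and 5 without either HOMO AAV replicate 2 or WT AAV replicate 2. Acot13, at -0.70 ± 0.19 (limma adjusted p = 0.0129), lost its call under 1 of 27 other settings. At 21 dpi, when WT muscle also responded, 10 members still fell more in HOMO muscle: Cpt1b, Acadvl, Acadl, Acadm, Hadhb, Hadh, Acaa2, Etfa, Etfdh and Acot13 (median -0.55), beside 3.79% lower and 1.84% higher. Etfa had the smallest adjusted p (-0.87 ± 0.15, limma adjusted p = 0.000268) and lost its call under 0 of 27 other settings. The count of 10 was 6 without WT AAV replicate 2, 17 without WT AAV replicate 4, 19 without HOMO AAV replicate 4, and 1 when only the 4 groups concerned entered the fit. Cpt1b, Acadvl, Hadhb, Etfa and Acot13 passed at all 3 days, and the share of all genes that did so was not counted. At 3 dpi Acadvl and Hadhb each lost their call under 9 of 27 other settings, Cpt1b under 4 and Etfa under 2.

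**Figure D4:**
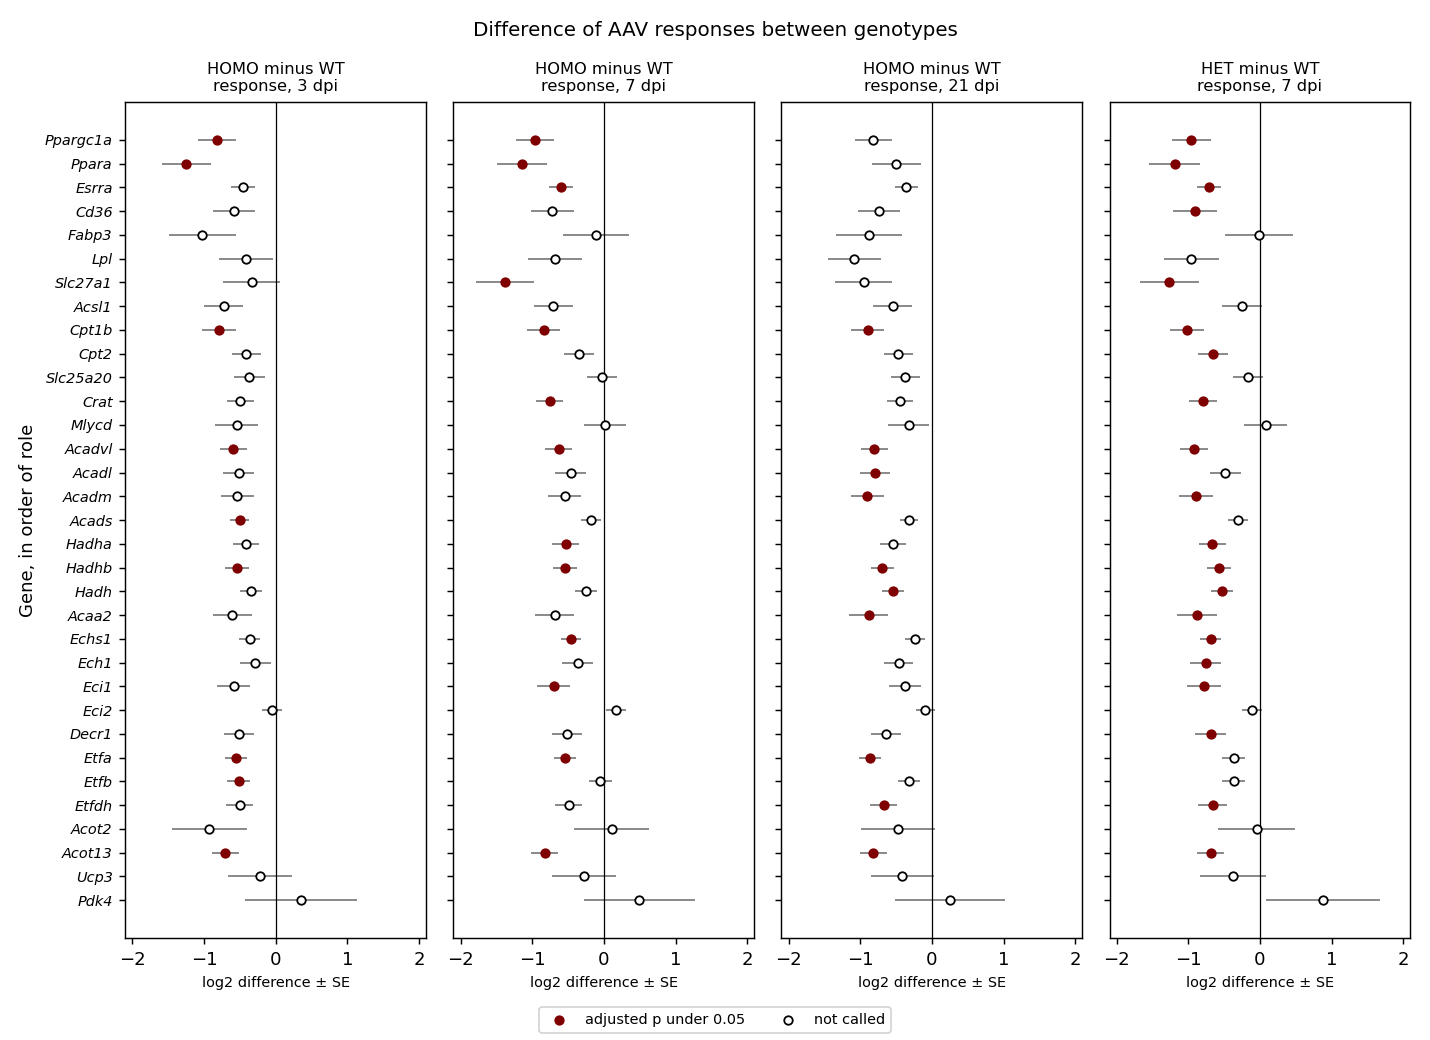
Difference of the AAV response from that of WT muscle (log2, point, with the SE as a bar) for each of the 33 genes, in HOMO muscle at 3, 7 and 21 dpi and in HET muscle at 7 dpi. Filled points have an adjusted p under 0.05: 9, 13, 10 and 20 genes. All filled points lie left of 0.

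Set against time, no member was called different in its response between 7 and 3 dpi in HOMO muscle by limma (0 of 33, with 2 at an unadjusted p under 0.05 and 0 by edgeR, limma voom and DESeq2 on the recovered reads), beside 5.96% of all genes in either direction. Without HOMO AAV replicate 1 at 3 dpi, 1 member, Etfb, had a higher response at 7 dpi. Between 21 and 7 dpi the fall was larger in Acadm (-0.80 ± 0.22, limma adjusted p = 0.0121), Etfb, Etfa, Lpl (-1.13 ± 0.36) and Hadhb, 5 of 33. Of all genes 816 had a lower and 982 a higher response, 13.8% in either direction. The count of 5 was 16 without HOMO AAV replicate 4 at 21 dpi, 9 without HOMO AAV replicate 4 at 7 dpi and 8 without HOMO saline replicate 1 at 7 dpi. It was 2 to 3 without 1 of 6 other libraries (HOMO AAV replicates 1 to 3 and HOMO saline replicate 1 at 21 dpi, HOMO AAV replicate 3 and HOMO saline replicate 3 at 7 dpi), 3 by edgeR, and 0 when only the groups concerned entered the fit. In WT muscle 3 members had a lower response at 21 than at 7 dpi, Ppara (-1.26 ± 0.36, limma adjusted p = 0.01), Crat (-0.61 ± 0.19) and Echs1 (-0.40 ± 0.14). Of all genes 1123 had a lower and 1372 a higher response there, 19.2% in either direction. The share of members with a lower response in WT muscle was thus near that of all genes. The count of 3 was 8 without WT AAV replicate 2 and 1 without WT AAV replicate 3 or 4 at 21 dpi, and 1 under quantile normalization.

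Some members were already lower without AAV. HOMO saline muscle was lower than WT saline muscle in 8 of 33 members at 7 dpi (median -0.49), beside 2.08% of all genes called in either direction, and the 8 were Acadvl, Etfdh, Slc25a20, Eci2, Acadl, Hadh, Echs1 and Acaa2. Acadvl averaged 271 ± 25.5 in HOMO saline muscle and 411 ± 7.45 in WT saline muscle (SD, n = 4 and 3, log2 difference -0.60 ± 0.14, limma adjusted p = 0.00956). In 26 of 33 members every HOMO saline library lay below every WT saline library at that day, as did 7.25% of all genes tested. At 3 dpi this held for 1 of 33 members, beside 7.94% of all genes, and at 21 dpi for 13 of 33, beside 5.92%. At 7 dpi the same was true of HET saline muscle for 24 members, beside 5.09% of all genes, and both counts at 7 dpi rest on the same 3 WT saline libraries. The count of 8 was 0 without WT saline replicate 3, 2 without WT saline replicate 2, 3 without HOMO saline replicate 2 and 1 without HOMO saline replicate 3. At 21 dpi 4 members were lower in HOMO saline muscle (Acads, Eci1, Acadvl and Echs1, median over the 33 -0.29). Of all genes 94 were lower and 338 higher, 3.32% in either direction. The count of 4 was 1 to 2 without any single library, 2 by limma voom, 1 with the replicate block and 13 when only those 2 groups entered the fit. At 3 dpi 0 members were called by limma, with 3 at an unadjusted p under 0.05 and 0 by edgeR, limma voom and DESeq2, beside 2.28% of all genes.

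In HET saline muscle Pdk4 was the single member called, at 180.5 ± 52.5 normalised counts, against 1091 ± 386 in WT saline muscle (SD, n = 4 and 3, log2 difference -2.59 ± 0.59, limma adjusted p = 0.0469), beside 0.2% of all genes in either direction. The 4 HET saline values of 187, 104, 215 and 216 lay below the 3 WT saline values of 873, 864 and 1537. The call did not hold without any 1 of the 7 libraries, under quantile normalization, with the replicate block or by limma voom, where 0 members were called, and 5 were called when only these 2 groups entered the fit.

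Other mitochondrial pathways moved with the fatty acid oxidation genes. Of 14 genes of the tricarboxylic acid (TCA) cycle, 13, 13 and 14 fell in HOMO muscle at 3, 7 and 21 dpi, 14 in HET muscle and 12 in WT muscle at 21 dpi, and none rose. Citrate synthase (Cs) stood at -0.95 ± 0.09 (limma adjusted p = 1.26e-12) in HOMO muscle at 21 dpi. Of 24 nuclear genes of oxidative phosphorylation, 23, 24 and 24 fell in HOMO muscle, 24 in HET muscle and 11 in WT muscle at 21 dpi, with Cycs, the gene of cytochrome c, at -1.26 ± 0.10 (limma adjusted p = 4.02e-14). Medians at 21 dpi in HOMO muscle were -1.11 for the TCA cycle, -1.0 for oxidative phosphorylation and -0.99 for the 33 members. In WT muscle they were -0.41, -0.23 and -0.39. Under quantile normalization 1 of 14 TCA cycle genes and 2 of 24 oxidative phosphorylation genes fell in WT muscle at 21 dpi, with medians of -0.15 and 0.00, while in HOMO muscle at 21 dpi 14 and 24 fell. The lists were not tested against each other.

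The switch between carbohydrate and fat at pyruvate dehydrogenase changed in both directions. Of 12 genes 9 fell and 2 rose in HOMO muscle at 21 dpi. Pdha1, of the enzyme itself, stood at -1.38 ± 0.11 (limma adjusted p = 8.36e-14), the pyruvate carrier gene Mpc2 at -1.24 ± 0.13 and the kinase gene Pdk2 at -1.36 ± 0.14, while Pdk3, another kinase, rose by 1.45 ± 0.23 and Ucp2, an uncoupling protein gene abundant in immune cells, by 2.19 ± 0.37. Pdk3 and Ucp2 rose in all 5 comparisons. Of 20 other regulators 15 fell at 21 dpi in HOMO muscle and none rose, with the muscle regulator Perm1 at -2.03 ± 0.23, limma adjusted p = 3.57e-10, the PPAR coactivator Lpin1 at -1.78 ± 0.18 and Prkaa2, the AMP-activated kinase subunit of muscle, at -1.16 ± 0.14. Perm1 fell already at 3 dpi, by 1.32 ± 0.23 on the log2 scale. Of 18 other mitochondrial acyl-CoA and ketone genes 14 fell and 2 rose, with Oxct1, which activates ketone bodies, at -1.38 ± 0.11, Acat1 at -1.22 ± 0.12 and Pcca at -1.33 ± 0.13, and Acad9, an assembly factor of complex I, at 0.71 ± 0.12 and Acot9 at 0.54 ± 0.14.

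Genes of fat handling outside the mitochondrion were read from 4 further lists. Of 14 other transport and activation genes 5 fell and 6 rose in HOMO muscle at 21 dpi, when 29.6% of all genes fell and 29.7% rose. Acsl6 stood at -0.73 ± 0.09 (limma adjusted p = 6.19e-09) and Fabp4, the fatty acid binding protein of fat cells and capillaries, at -0.88 ± 0.15. Those that rose were Acsl5 (1.29 ± 0.20, limma adjusted p = 2.26e-07), Fabp5 (1.24 ± 0.25), Cpt1a (0.69 ± 0.25), Acsl3 (0.63 ± 0.21), Acsf2 (0.57 ± 0.18) and Acsl4 (0.30 ± 0.11). Cpt1a, the form of most tissues other than muscle, rose where Cpt1b fell. Of 14 peroxisomal genes 10 fell and none rose, with a median of -0.38, and the very long chain transporter gene Abcd2 stood at -1.44 ± 0.17 (limma adjusted p = 1.49e-09), Pex7 at -0.81 ± 0.10 and Abcd3 at -0.63 ± 0.09. Of 13 lipid droplet genes 8 fell and 2 rose, with the droplet coat gene Plin4 at -2.70 ± 0.34, limma adjusted p = 3.37e-09, the lipase activator Abhd5 at -0.85 ± 0.11 and Gpam at -0.85 ± 0.14, and with Plin2, the general droplet coat, at 0.58 ± 0.17 and Dgat1 at 0.40 ± 0.12. Of 12 genes of fatty acid synthesis 6 fell and 2 rose, with Me1 at -1.47 ± 0.14, limma adjusted p = 6.66e-12, Acacb, whose product makes the malonyl-CoA that inhibits Cpt1b, at -1.41 ± 0.15, and the elongase genes Elovl1 at 1.01 ± 0.20 and Elovl5 at 0.38 ± 0.13. At 7 dpi in HET muscle 5 lower and 1 higher transport and activation genes, 9 lower and 1 higher peroxisomal, 10 lower and 0 higher lipid droplet and 4 lower and 0 higher synthesis genes were called, and in WT muscle at 21 dpi 3 lower and 2 higher, 5 lower and 2 higher, 5 lower and 1 higher and 2 lower and 2 higher.

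**Figure D5:**
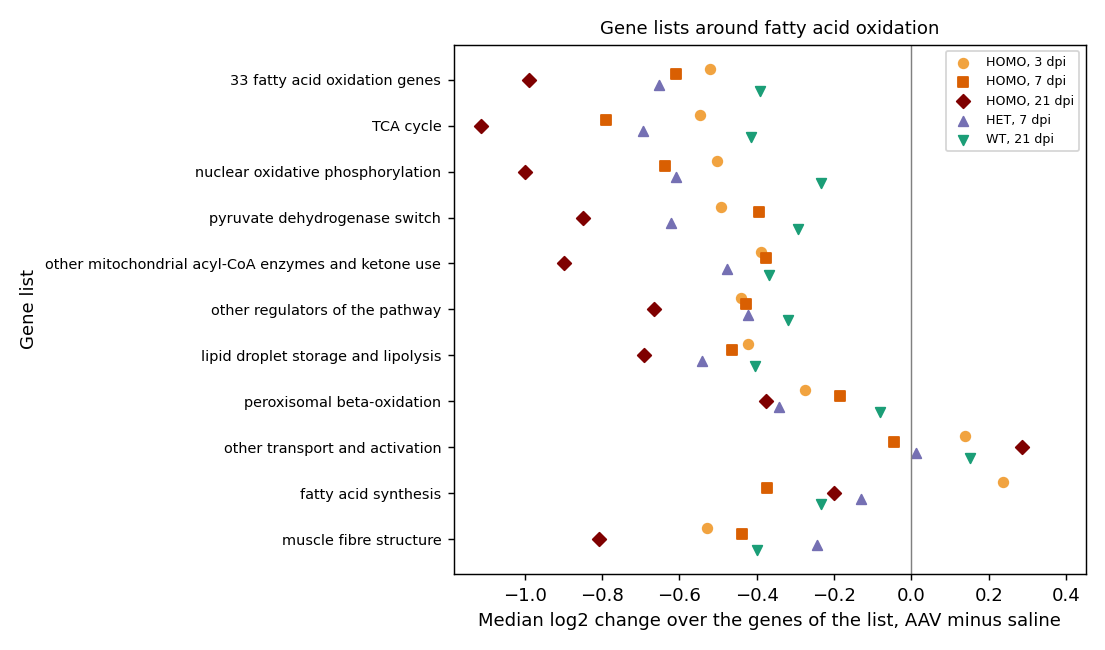
Median log2 change, AAV minus saline, of the 33 fatty acid oxidation genes and of 10 other gene lists (rows), in HOMO muscle at 3, 7 and 21 dpi, HET muscle at 7 dpi and WT muscle at 21 dpi (symbols). The members lie at -0.99 in HOMO muscle at 21 dpi, beside -1.11 for the TCA cycle and -0.81 for muscle fibre structure. Under quantile normalization these are -0.79, -0.78 and -0.07.

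Genes of muscle fibre structure and of other cell types were read in the same comparisons. Of 22 fibre structure genes 21, 14 and 18 fell and 1 rose at 3, 7 and 21 dpi in HOMO muscle, 7 fell and 3 rose in HET muscle, and 12 fell and 1 rose in WT muscle at 21 dpi. Tnnt3, the fast troponin T gene, stood at -1.15 ± 0.13 (limma adjusted p = 3.88e-10) in HOMO muscle at 21 dpi and Des, the desmin gene, at 0.43 ± 0.11. The medians of this list were -0.53, -0.44 and -0.81 in HOMO muscle, -0.24 in HET muscle and -0.40 in WT muscle at 21 dpi. Under quantile normalization they were -0.08, -0.02 and -0.07 in HOMO muscle, -0.02 in HET muscle and 0.05 in WT muscle, so that the direction of this list turned in WT muscle, whereas the medians of the 33 members were -0.41, -0.47, -0.79, -0.61 and -0.25. Quantile normalization also moved the median of all genes in HOMO muscle at 21 dpi to -0.12. Under it 19, 22 and 32 members fell in HOMO muscle at 3, 7 and 21 dpi, and 26 in HET muscle.

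Of 16 macrophage markers 15 rose in HOMO muscle at each day, in HET muscle and in WT muscle at 21 dpi. Their summed level at 21 dpi ran from 339.7 to 3089 in HOMO AAV muscle and from 46.6 to 109.6 in HOMO saline muscle, and from 361 to 1174 in WT AAV muscle and from 73.0 to 93.1 in WT saline muscle. All 10 tested T and natural killer cell markers rose at 21 dpi in HOMO and in WT muscle, 7 rose in HOMO muscle at 7 dpi, and 0 were called in HOMO muscle at 3 dpi or in HET muscle. Of 10 fibroblast and matrix markers 6, 9 and 9 rose at 3, 7 and 21 dpi in HOMO muscle, 9 in HET muscle and 9 in WT muscle at 21 dpi, and 1 fell, in HOMO muscle at 3 dpi. Of 8 genes of satellite cells and regeneration 2, 5 and 7 rose in HOMO muscle, 5 in HET muscle and 5 in WT muscle at 21 dpi, and 1 fell in HOMO muscle at 3 dpi. The summed fibre structure genes ran from 77610.0 to 157000.0 normalised counts in HOMO AAV muscle at 21 dpi and from 181700.0 to 197000.0 in HOMO saline muscle. In bulk muscle, fewer fibres and less of these RNAs per fibre cannot be told apart, and the part of these changes in the fall of the members was not tested. Of 10 slow and oxidative fibre genes 4 and 3 fell and 0 rose in HOMO muscle at 3 and 7 dpi, and 1 fell and 4 rose at 21 dpi. In HET muscle 0 fell and 3 rose, and in WT muscle at 21 dpi 1 fell and 3 rose. The list medians were -0.99, -0.41, 0.61, 1.08 and 0.01. In saline muscle 2 of these genes, Myl2 and Tnnt1, were higher in HOMO than in WT muscle at 7 dpi (list median 1.61), where 8 members were lower. At 3 and 21 dpi 3 and 2 of the 10 were higher in HOMO saline muscle, and none was lower.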

How the data were processed

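The sources were 56 libraries of tibialis anterior RNA made with a directional kit, per the labels' protocols. FastQC, Bowtie, RSEM and limma and the builds GRCm38 and mm10 are named in the submitters' processing notes, with no order or settings. The authors deposited 1 table whose signal is a linear normalised read count, and the values show how it was made: (reads + 0.5) divided by the library's effective size, on the scale of CPM. From this the whole reads were recovered for 100.0% of values (tolerance 0.02 reads), and 0 columns belonged to no sample. No 2 libraries of the same group agreed within sampling noise (lowest chi-square per degree of freedom 7.92), and pairs across groups were not compared.

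Tests used limma 3.58.1 (R 4.3.3) with an intensity trend on log2(value + 1), 1 mean for each of the 14 groups, and genes with a mean of at least 1 (13017 tested, 1853 below). The filter, the spread over all groups and the adjustment over all genes bear on every call. Alternatives were other pseudocounts (0.25 and 4), no filter or a filter at 5, median-of-ratios and quantile scaling, the groups of a comparison alone, the replicate block, leaving out each library, and edgeR 4.0.16, limma voom and DESeq2 1.42.0 on the recovered reads. The fit was tested on simulated data. Of 26 same-numbered pairs of AAV and saline libraries, 12 deviated together with a correlation over 0.1 (range -0.241 to 0.311), and all pairs did so only in HET muscle at 7 dpi and HOMO muscle at 21 dpi, so that only there the numbers were taken as pairs. Promoter windows came from RefSeq, GRCm38.p6.

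The members and lists were chosen with earlier results of these data known. All 33 members are named; of other lists, the 3 genes with the smallest p in HOMO muscle at 21 dpi and those called against the rest of their list, and Myl2 and Tnnt1, named after their values were seen.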

Additional observations from a re-analysis of the deposited data

Results flagged for a closer look

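Some libraries stood apart from the others of their group. The member level and 15 genes were each tested for a single distant value in every group of 4 or 5 libraries. Of these 192 tests 10 flagged a library. The tests share libraries and are not independent, so the count was not set against chance. The median level of the 33 members in HOMO AAV replicate 4 at 7 dpi was -1.23 (log2, from the WT saline mean), below the other 4 libraries, and in this library Acadvl had 138.6 and Cpt1b 94.42 normalised counts, the lowest of the group. HOMO AAV replicate 4 at 21 dpi was the highest of its group, with 36.87 for Acot13, 61.79 for Decr1 and 269.2 for Hadha. HET AAV replicate 1 at 7 dpi had 198.7 for Cd36, above the other 3. WT AAV replicate 2 at 7 dpi had 105.8 for Esrra. Etfa stood at 168.2 in HOMO AAV replicate 4 at 3 dpi and at 206.4 in HET saline replicate 2 at 7 dpi.

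The AAV response differed between genotypes in the test of the difference itself. In HOMO muscle it was lower than in WT muscle in 9 members at 3 dpi, 13 at 7 dpi and 10 at 21 dpi, beside 4.36%, 10.9% and 3.79% of all genes tested. In HET muscle at 7 dpi it was lower than in WT muscle in 20 members, beside 9.88% of all genes. Between 21 and 7 dpi it differed in 5 members in HOMO muscle and in 3 in WT muscle, all with a lower response at 21 dpi. In either direction 13.8% and 19.2% of all genes differed. Of the 13017 genes tested, 816 had a lower and 982 a higher response in HOMO muscle. In WT muscle these counts were 1123 and 1372. The share of members with a lower response in WT muscle, 3 of 33, was thus near that of all genes.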

How the results depend on the processing

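The counts of members that fell in HOMO muscle at 3, 7 and 21 dpi and in HET muscle at 7 dpi stayed within 1.5 times the reported counts under every alternative, with 18 to 30, 22 to 25, 29 to 32 and 25 to 27 members when single libraries were left out. In WT muscle at 21 dpi the count was 7 under quantile normalization and 7 to 21 with 1 library left out. Fitting only the groups of a comparison gave 1 member for HOMO minus WT at 21 dpi, 13 for HOMO against WT saline at 21 dpi, 5 for HET against WT saline and 0 for HOMO muscle at 21 minus 7 dpi. Quantile normalization gave 0 for HET against WT saline and 1 for WT muscle at 21 minus 7 dpi. Limma voom gave 2 for HOMO against WT saline at 21 dpi and 0 for HET against WT saline, and edgeR gave 3 for HOMO muscle at 21 minus 7 dpi. The cause of these shifts was not tested.

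With 1 library left out, counts ran from 1 to 20 for HOMO minus WT at 3 dpi, 10 to 16 at 7 dpi and 6 to 19 at 21 dpi, from 15 to 21 for HET minus WT, from 0 to 10, 1 to 2 and 0 to 0 for HOMO at 7 and 21 dpi and HET against WT saline, from 0 to 1 and 2 to 16 for HOMO muscle at 7 minus 3 and 21 minus 7 dpi, and from 1 to 8 for WT muscle at 21 minus 7 dpi. Over single members, 6736 of 6897 values stayed called or not called under the other settings. Of the rest, 87 lost a call, 74 gained one and 0 turned direction. With 1 library left out, 6723 of 7062 stayed so, 250 lost a call, 89 gained one and 0 turned. Values not called in either fit are among those that stayed, even where their sign changed. A turn of direction was counted only where the member was called in the main or the other fit. These counts thus do not give the share of calls that held. Calls differed in this. Hadhb in HOMO muscle at 21 minus 7 dpi lost its call under 16 of 28 settings, and Etfa in HOMO minus WT at 21 dpi under 0 of 27.

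The replicate block gave 32 members in HOMO muscle at 21 dpi and 27 in HET muscle, 26 in HOMO muscle at 3 dpi, 1 for HOMO against WT saline at 21 dpi, 0 for HET against WT saline and 1 for HOMO muscle at 7 minus 3 dpi. The labels do not say in any group that a shared number marks a shared animal. Only in HET muscle at 7 dpi and HOMO muscle at 21 dpi were the numbers taken as pairs, from their correlations. Ppara and Acot2 had low normalised counts. The members with the widest spread within groups were Pdk4, Acot2, Fabp3 and Ucp3, with SDs of 0.81, 0.54, 0.48 and 0.47 on the log2 scale. Ppara stood at 0.35.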
